A study of Homo sapiens with 10 samples.

Results

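The iron-sulfur cluster assembly genes described here are ISCU, NFS1, LYRM4, FDX1, HSCB, GLRX5, ISCA1 and ISCA2. They were chosen by symbol as genes that build the iron-sulfur clusters of the respiratory complexes, and all 8 were matched to 1 identifier each among the 63677 Ensembl gene identifiers of the count files. Transcripts were measured by RNA-Seq in RS4;11, an established B-cell precursor acute lymphoblastic leukemia cell line that is highly sensitive to Venetoclax (VEN), an inhibitor of the anti-apoptotic protein BCL-2. The 10 lines all derive from this 1 cell line. Stepwise VEN selection gave 5 insensitive lines (VENins), and DMSO, the solvent, served for 5 sensitive controls (VENsens). By the study's methods, only VENins cultures still contained VEN, which was taken off prior to measurement. Each line gave 1 library, so p-values reflect the spread between lines of a single parental cell line. The comparison asks how the transcripts of VEN-insensitive lines differ from those of their sensitive controls.

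Iron-sulfur clusters are small cofactors of iron and sulfide that carry electrons in respiratory complexes I, II and III and serve many enzymes outside the respiratory chain. In mitochondria, a cysteine desulfurase supplies sulfur, a ferredoxin supplies electrons, and a first cluster is put together on a scaffold protein. A chaperone pair then moves this cluster to a monothiol glutaredoxin, and later factors build larger clusters and insert them into recipient proteins. A cytosolic machinery, which depends on the mitochondrial part, supplies cytosolic and nuclear enzymes.

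The libraries held between 20631907 and 28323643 reads on genes. Levels are given as CPM, read counts relative to the scaled total of a library, after TMM normalization. The labelled cell type was checked against B-lineage markers. CD79A, CD79B, PAX5, EBF1 and VPREB1 had between 132 and 827 CPM in every library, while DNTT was between 1.08 and 27.3 CPM. Of the T-cell markers, CD3D and CD2 did not exceed 0.118 and 0.0409 CPM, and CD3E reached at most 1.04 CPM. Of the markers of erythroid, fibroblast and epithelial cells, HBA1, DCN and EPCAM were at 0 counts in all 10 libraries, HBB and COL1A2 did not exceed 1 count, ALAS2 had 1 to 5 counts, and COL1A1 had 49 to 79 counts or 1.93 to 3.33 CPM. Among the monocyte markers, CD14 and LYZ stayed below 1 CPM, and CSF1R, the most abundant of them, lay between 6.15 and 11.5 CPM. The summed monocyte markers ranged from 7.22 to 10.8 CPM in VENsens lines and from 10.1 to 12.5 CPM in VENins lines. CSF1R made up most of this sum, with a log2 fold change of 0.23 ± 0.097 (SE), while CD14 and LYZ had -0.17 ± 0.30 and -0.47 ± 0.30. The part of these markers in the results on the members was not tested. PAX5 was the only one of these markers that passed the test, with a log2 fold change of -0.31 ± 0.053 (SE) and an adjusted p of 0.0272 in edgeR's quasi-likelihood test with Benjamini-Hochberg adjustment. Other B-lineage markers went the other way, as CD79B had 0.24 ± 0.088 and VPREB1 had 0.14 ± 0.054. Of 7 tested B-lineage markers, 4 had a log2 fold change above 0, with a median of 0.06. At an unadjusted p under 0.05, 2 were higher and 2 lower, beside 7.79% and 8.38% of all genes tested.

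All 8 members were expressed in every library, and all 8 had a mean level above that of VENsens in VENins lines, but none passed the test across all genes. The median log2 fold change of the members was 0.13, beside 0.0035 over the 16756 genes tested, of which 51.1% lay above 0. In edgeR's quasi-likelihood test fitted with condition and line number, and Benjamini-Hochberg adjustment over all genes tested, 0 of the 8 members and 33 genes in all were called, which is 0.197% of the genes tested. At an unadjusted p under 0.05, 2 members were called, both higher in VENins, where 7.79% of all genes tested were called in that direction. DESeq2 with the same terms called 1 member, GLRX5, and 217 genes in all, or 1.3% of the genes tested. Of these 16756 genes, 3899 were given no adjusted p by DESeq2 and could not be called. Lines of the same number in both conditions are called a line pair here, and they share only that number. A difference in RNA per cell and a difference in the makeup of a culture cannot be told apart in bulk libraries.

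**Figure D1:**
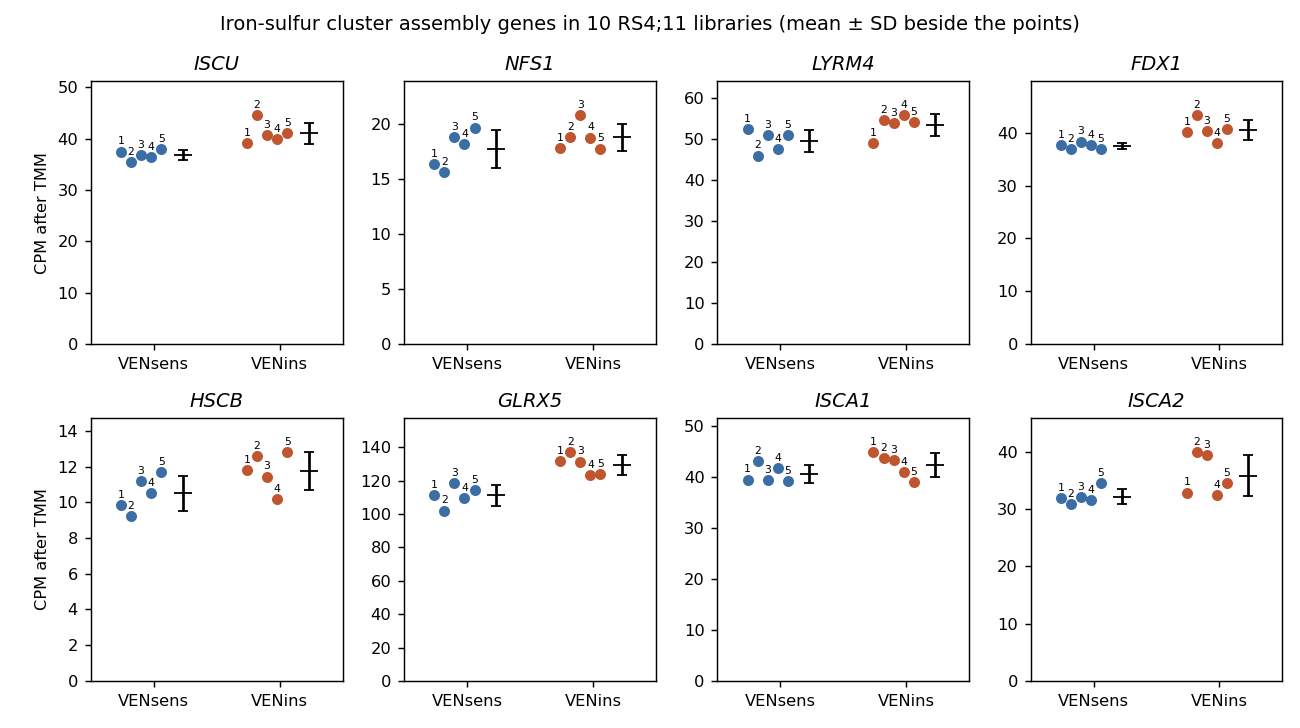
CPM after TMM of the 8 members in 5 VENsens (blue) and 5 VENins (orange) libraries, numbered by line, with the mean and SD beside the points; each vertical axis starts at 0. The points of GLRX5 and ISCU do not overlap between the conditions, whereas those of the other 6 members do.

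ISCU is the scaffold on which the first cluster is assembled. Its gene lies at chr12:108562582-108569384 on the plus strand (GRCh38). In VENsens lines 1 to 5, its level was 37.4, 35.4, 36.7, 36.4 and 37.9 CPM. In VENins lines 1 to 5, it was 39.1, 44.5, 40.7, 39.8 and 41.0 CPM. Every VENins line thus lay above every VENsens line, and VENins 2 stood highest. The means were 36.8 ± 0.976 and 41.0 ± 2.07 CPM (SD, n = 5 lines each), an 11.6% difference. The log2 fold change of ISCU was 0.16 ± 0.062 (SE), with an adjusted p of 0.230 in edgeR's quasi-likelihood test with Benjamini-Hochberg adjustment, and ISCU was higher in 5 of 5 line pairs.

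NFS1 is the cysteine desulfurase that takes sulfur from cysteine, and LYRM4 is the small protein that holds it in a stable complex. NFS1 (chr20:35668055-35699359, minus strand) had 16.4, 15.6, 18.8, 18.2 and 19.6 CPM in VENsens lines 1 to 5 and 17.8, 18.8, 20.8, 18.7 and 17.7 CPM in VENins lines 1 to 5. The conditions overlapped widely, and the lowest values of NFS1 were those of VENsens 1 and VENsens 2. Its log2 fold change was 0.08 ± 0.076 (SE), with an adjusted p of 0.628 in edgeR's quasi-likelihood test with Benjamini-Hochberg adjustment. LYRM4 (chr6:5102593-5260939, minus strand) had 52.4, 46.0, 51.0, 47.6 and 51.0 CPM in VENsens lines and 48.95, 54.6, 53.8, 55.8 and 54.2 CPM in VENins lines. VENins 1 was the exception among the VENins lines, as the other 4 lay above every VENsens line. The log2 fold change of LYRM4 was 0.11 ± 0.063 (SE), with an adjusted p of 0.417 in edgeR's quasi-likelihood test with Benjamini-Hochberg adjustment. Each of these genes was higher in 4 of 5 line pairs.

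FDX1 is a mitochondrial ferredoxin, which carries electrons from the reductase FDXR. FDX1 (chr11:110429883-110464881, plus strand) had 37.7, 36.9, 38.3, 37.7 and 36.9 CPM in VENsens lines 1 to 5 and 40.2, 43.3, 40.2, 38.03 and 40.7 CPM in VENins lines 1 to 5. VENins 4 lay within the VENsens range, and the other VENins lines lay above it. The log2 fold change of FDX1 was 0.11 ± 0.060 (SE), with an adjusted p of 0.393 in edgeR's quasi-likelihood test with Benjamini-Hochberg adjustment, and FDX1 was higher in 5 of 5 line pairs. Together with ISCU and GLRX5, this made 3 of 8 members that were higher in all 5 line pairs, as were 7.61% of all genes tested. The related ferredoxin FDX2, listed among the other mitochondrial machinery, had only 2 to 7 counts per library and was not tested. In GENCODE 29, 70.9% of its exon bases also belong to other genes. Whether this overlap bears on its counts was not tested.

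HSCB is the co-chaperone that binds ISCU and brings it to the mitochondrial HSP70. HSCB (chr22:28742031-28757515, plus strand) had 9.86, 9.21, 11.2, 10.5 and 11.7 CPM in VENsens lines 1 to 5 and 11.8, 12.6, 11.4, 10.2 and 12.8 CPM in VENins lines 1 to 5. The conditions overlapped, since VENins 4 and VENins 3 lay within the VENsens range. The log2 fold change was 0.16 ± 0.091 (SE), with an adjusted p of 0.402 in edgeR's quasi-likelihood test with Benjamini-Hochberg adjustment. HSCB had the widest error of the members, from 190 to 318 counts per library.

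GLRX5 is the monothiol glutaredoxin that receives the cluster and passes it on. GLRX5 (chr14:95533503-95544724, plus strand) had the largest difference of the members, except with length and GC trends taken out, where LYRM4 had a log2 fold change of 0.20 and GLRX5 0.19. Its level was 112, 102, 118, 110 and 114 CPM in VENsens lines 1 to 5. In VENins lines 1 to 5, its level was 132, 137, 132, 123 and 124 CPM. The conditions did not overlap, with 118 CPM as the highest VENsens value and 123 CPM as the lowest VENins value. The means were 111.2 ± 6.05 and 129.5 ± 5.85 CPM (SD, n = 5 lines each), a 16.5% difference. The log2 fold change of GLRX5 was 0.22 ± 0.058 (SE), with an adjusted p of 0.0991 in edgeR's quasi-likelihood test with Benjamini-Hochberg adjustment, and GLRX5 was higher in 5 of 5 line pairs. GLRX5 ranked 286 of 16756 genes by p. DESeq2 with the line number as a term gave GLRX5 a log2 fold change of 0.22 ± 0.064 (SE) and an adjusted p of 0.0385, past the threshold, and edgeR without the filter on low counts gave an adjusted p of 0.0250. Of the 9 other processing settings, with or without the line number as a term, 4 called GLRX5. Across all 9, in edgeR or DESeq2, the adjusted p of GLRX5 lay between 0.00309 and 0.105. With 1 line pair left out at a time, it lay between 0.102 and 0.533 in edgeR's quasi-likelihood test with Benjamini-Hochberg adjustment. The log2 fold change was between 0.17 and 0.25 in these 5 fits. GLRX5 and ISCU were thus the 2 of 8 members whose conditions did not overlap, as were 2.36% of all genes tested with VENins higher.

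ISCA1 and ISCA2 are partner proteins that work late, in the assembly of the larger clusters that lipoate synthesis, aconitase and respiratory complexes need. ISCA1 (chr9:86264546-86283102, minus strand) had 39.5, 43.1, 39.3, 41.7 and 39.2 CPM in VENsens lines 1 to 5 and 44.9, 43.6, 43.2, 41.0 and 39.0 CPM in VENins lines 1 to 5. ISCA1 overlapped between the conditions, was higher in 3 of 5 line pairs, and had the smallest difference among the members. This order did not hold in every fit, as NFS1 lay below ISCA1 without line pair 2, with log2 fold changes of 0.04 and 0.07. In the fit with all lines, the log2 fold change of ISCA1 was 0.06 ± 0.060 (SE), with an adjusted p of 0.655 in edgeR's quasi-likelihood test with Benjamini-Hochberg adjustment. ISCA2 (chr14:74493720-74497106, plus strand) had 31.9, 30.9, 32.0, 31.6 and 34.5 CPM in VENsens lines and 32.8, 39.9, 39.3, 32.5 and 34.5 CPM in VENins lines. Only VENins 2 and VENins 3 stood clearly above the VENsens values of ISCA2, and the remaining VENins lines lay among them. Its log2 fold change was 0.15 ± 0.071 (SE), with an adjusted p of 0.314 in edgeR's quasi-likelihood test with Benjamini-Hochberg adjustment.

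The order of the members changes once the length of their transcripts is taken into account. Per kb of exon in GENCODE 29, GLRX5 stood first with a mean of 42.3 CPM per kb over the 10 libraries. It was followed by ISCA1 with 12.8, FDX1 with 12.2 and ISCA2 with 11.1 CPM per kb. ISCU had 8.76, HSCB 7.61, LYRM4 5.46 and NFS1 3.02 CPM per kb. The ranges over the 10 libraries overlapped between ISCA1 and FDX1, between FDX1 and ISCA2, and between ISCU and HSCB on this scale. Within libraries, ISCA1 lay above FDX1 in 8 of 10, FDX1 above ISCA2 in 9 of 10, and ISCU above HSCB in 10 of 10. The other neighbours in this order did not overlap. With the longest transcript of each gene in place of all its exons, ISCA1 was at 21.2 CPM per kb, apart from ISCA2 with 12.9 and FDX1 with 12.2 CPM per kb, which changed places, GLRX5 was at 64.6 CPM per kb, and NFS1 was at 6.05 CPM per kb. On the scale of all exons, HSPA9, the HSP70 that works with HSCB, had 69.9 CPM per kb.

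**Figure D2:**
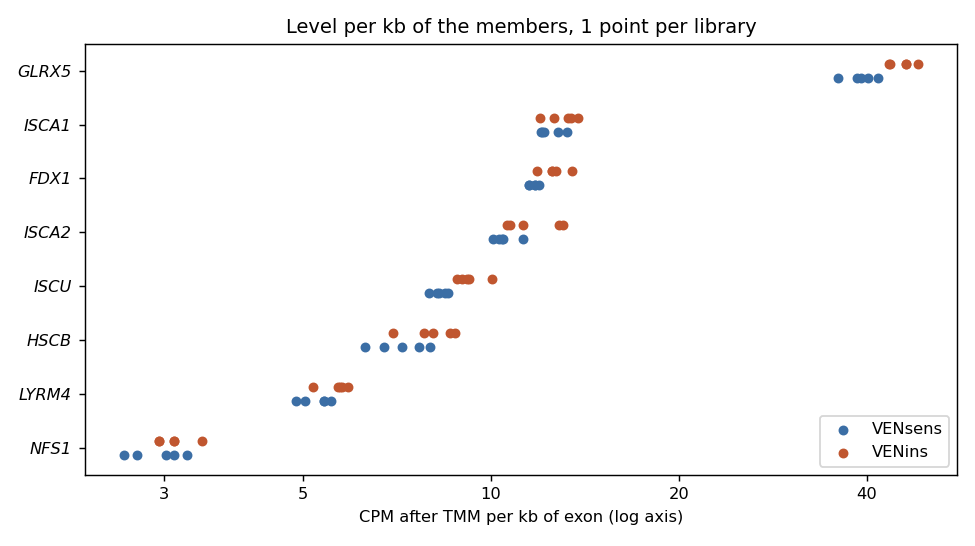
CPM after TMM per kb of exon (horizontal log axis) for the 8 members, with 1 point per library, blue for VENsens and orange for VENins. GLRX5 lies apart from the rest at a mean of 42.3 CPM per kb, and NFS1 is lowest at 3.02 CPM per kb.

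Between lines of one condition, the coefficient of variation of the members ranged from 1.58% for FDX1 among the VENsens lines to 10% for ISCA2 among the VENins lines. NFS1 and HSCB had 9.50% and 9.52% among the VENsens lines. From the mean counts, counting error alone was 3.27% for FDX1 and ISCU, 4.77% for NFS1 and 6.1% for HSCB. The 1.58% of FDX1 and the 2.65% of ISCU among the VENsens lines lay below this error. These values therefore cannot show how little the lines differ. All other values of the members lay above their counting error. The part of counting error in the order of the members was not tested. The biological variation that edgeR estimated placed FDX1 at the 14.3 percentile and HSCB at the 54.1 percentile of all genes tested, the lowest and highest of the members.

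The members tended to be high or low in the same libraries. VENsens 2 had the lowest of 10 values for 7 of the 8 members, the exception being ISCA1. VENins 2 had the highest of 10 values for 4 members, namely ISCU, FDX1, GLRX5 and ISCA2. As a mean over the members of log2 CPM relative to each gene's own mean, the VENsens lines 1 to 5 stood at -0.08, -0.14, -0.03, -0.07 and -0.01. On the same scale, the VENins lines 1 to 5 stood at 0.03, 0.15, 0.10, 0.00 and 0.05. The conditions did not overlap in this mean, but VENsens 5 and VENins 4 lay close together. Without line pair 2, the median log2 fold change of the members was 0.09 instead of 0.13, and all 8 members kept a fold change above 0.

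**Figure D3:**
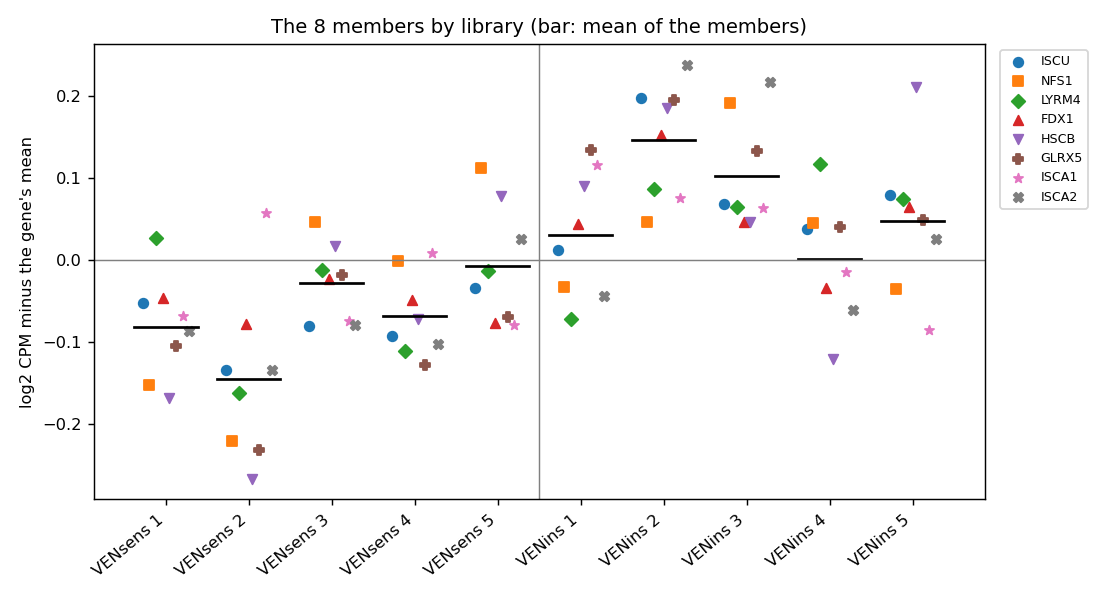
Log2 CPM of each member minus that gene's mean over the 10 libraries (vertical axis), by library, with a black bar for the mean of the 8 members. VENsens 2 has the lowest bar at -0.14 and VENins 2 the highest at 0.15.

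Over the 10 libraries, Pearson's r between the log2 CPM of 2 members had a median of 0.60 over the 28 pairs of members, from -0.26 for LYRM4 and ISCA1 to 0.90 for ISCU and FDX1. Since these values hold the difference between the conditions, r was also taken on deviations from the mean of each condition. The median was then 0.43, from -0.76 for LYRM4 and ISCA1 to 0.78 for ISCU and ISCA2. ISCA1 stood apart from the other members. Its 7 pairs had a median r within conditions of -0.21, whereas the 21 pairs without ISCA1 had a median of 0.58 and were all above 0. These values describe 10 libraries from 1 cell line, which share their preparation and scaling.

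The 5 genes most like the mean of the members' standardized log2 CPM over the 10 libraries were CRLS1 (r = 0.985), PSMD14 (r = 0.981), PSMB1 (r = 0.977), DPY30 (r = 0.973) and RPL36AL (r = 0.971). CRLS1 makes cardiolipin, PSMD14 and PSMB1 are subunits of the proteasome, DPY30 is a subunit of histone methyltransferase complexes, and RPL36AL is a ribosomal protein. CRLS1 averaged 49.8 ± 2.39 CPM in the VENsens and 56.1 ± 2.22 CPM in the VENins lines (SD, n = 5 lines each). In all, 160 of the 16748 other genes tested had an r above 0.9, so the members were not alone in this pattern. These r values hold the difference between the conditions, and the 5 named genes are the highest of all the other genes tested.

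The rest of the mitochondrial machinery gave a mixed picture. Of its 14 tested genes, 10 had a log2 fold change above 0, with a median of 0.11, and none passed the test. At an unadjusted p under 0.05, 4 were higher, beside 7.79% of all genes tested, and 1 was lower, beside 8.38%. The median of this list was 0.07 with length and GC trends taken out, with 10 of 14 above 0. It was also 0.07 without line pair 2, with 9 of 14 above 0. BOLA3, which acts with late assembly factors, had a log2 fold change of 0.26 ± 0.10 (SE), and NDUFAB1, the acyl carrier protein bound to LYRM4, had 0.13 ± 0.054. IBA57, a partner of ISCA1 and ISCA2, went the other way, from 22.3 ± 1.48 CPM in the VENsens to 19.1 ± 1.504 CPM in the VENins lines (SD, n = 5 lines each). It was lower in 5 of 5 line pairs, as were 6.66% of all genes tested, with a log2 fold change of -0.22 ± 0.077 (SE) and an adjusted p of 0.180 in edgeR's quasi-likelihood test with Benjamini-Hochberg adjustment. Without VENins 5 and without the line number as a term, IBA57 had a log2 fold change of -0.26 ± 0.068 (SE). The same test then gave an adjusted p of 0.0471, past the threshold. That fit was added after the data were seen and called 502 genes in all, and no other fit called IBA57.

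All 10 tested genes of the cytosolic machinery had a log2 fold change above 0, with a median of 0.06, and none passed the test. With 1 line pair left out, the median lay between 0.04 without line pair 2 and 0.09 without line pair 3, and 8 of the 10 were above 0 without line pair 5. GLRX3, a cytosolic monothiol glutaredoxin, averaged 49.3 ± 1.88 CPM in the VENsens and 57.2 ± 2.97 CPM in the VENins lines (SD, n = 5 lines each), and its conditions did not overlap. Its log2 fold change was 0.21 ± 0.060 (SE), with an adjusted p of 0.123 in edgeR's quasi-likelihood test with Benjamini-Hochberg adjustment. With CIAO1, this made 2 of the 10 genes that were higher in VENins without overlap, as were 2.36% of all genes tested. CIAO1 had a log2 fold change of only 0.06 ± 0.050 (SE). With the trends of transcript length and GC content taken out, edgeR's quasi-likelihood test gave GLRX3 a log2 fold change of 0.23 ± 0.048 (SE) and a Benjamini-Hochberg adjusted p of 0.0455. CIAO2B, a subunit of the complex that targets clusters to recipients, had a log2 fold change of 0.13 ± 0.059 (SE). The genes BOLA2 and BOLA2B, which are near-identical copies, were at 0 counts in all libraries.

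**Figure D4:**
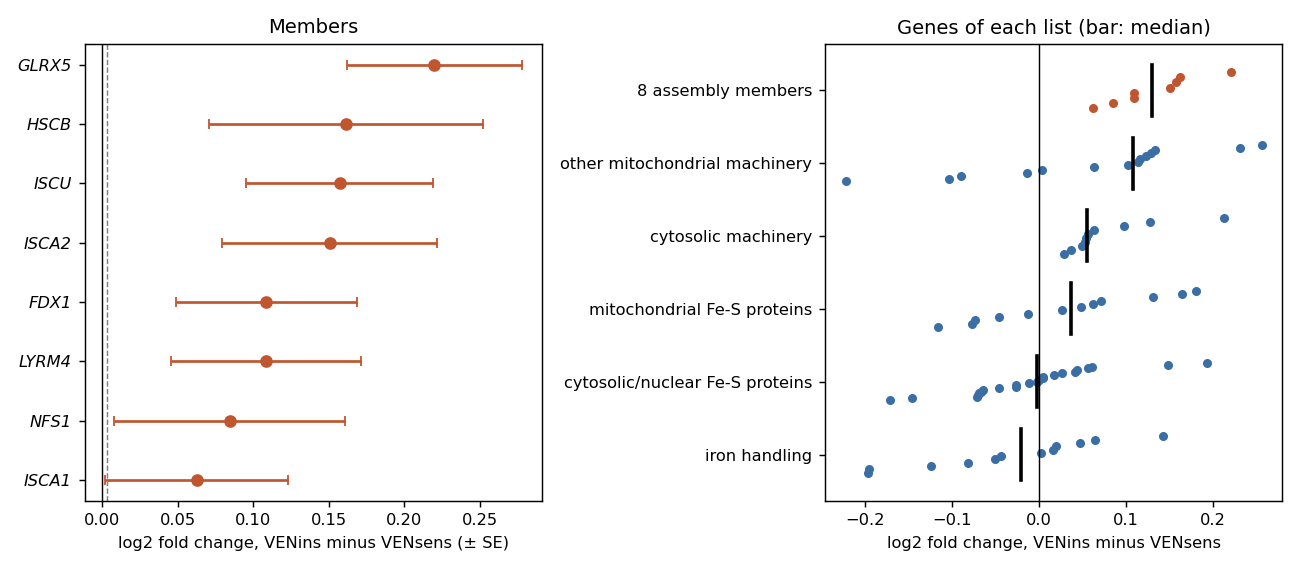
Log2 fold change of VENins minus VENsens, on the left for the 8 members with the SE and a dashed line at the median of all genes tested (0.0035), and on the right for each tested gene of 6 lists with a bar at the list's median. The members range from 0.06 for ISCA1 to 0.22 for GLRX5, and the lists of cytosolic and nuclear iron-sulfur proteins and of iron handling are spread around 0.

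None of the tested recipients of the clusters and none of the genes of iron handling passed the test. Of 12 tested mitochondrial iron-sulfur proteins, 7 had a fold change above 0, with a median log2 of 0.04. In all, 2 of the 12 were higher in VENins without overlap between the conditions, as were 2.36% of all genes tested. The median was 0.02 without line pair 2, with 7 of 12 above 0. UQCRFS1, the Rieske protein of complex III, averaged 77.4 ± 4.96 CPM in the VENsens and 87.6 ± 2.59 CPM in the VENins lines (SD, n = 5 lines each), without overlap. Its log2 fold change was 0.18 ± 0.056 (SE), with an adjusted p of 0.147 in edgeR's quasi-likelihood test with Benjamini-Hochberg adjustment. SDHB, the iron-sulfur subunit of complex II, had a log2 fold change of 0.13 ± 0.057 (SE) and did not overlap between the conditions either, whereas NDUFS1 of complex I and FECH, the last enzyme of heme synthesis, had -0.08 ± 0.054 and -0.07 ± 0.064.

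Of 23 tested cytosolic and nuclear iron-sulfur proteins, 10 had a fold change above 0, with a median log2 of -0.0029. The sign of this median depended on the fit, as it was 0.02 with length and GC trends taken out, with 15 of 23 above 0, and 0.0038 without line pair 3, with 13 of 23 above 0. It lay further below 0, at -0.03, without line pair 2 or line pair 4, with 10 and 8 of 23 above 0. CDK5RAP1, a tRNA-modifying enzyme, and PRIM2, a primase subunit, had log2 fold changes of 0.19 ± 0.069 and 0.15 ± 0.071 (SE). The helicase BRIP1 and DPH1, an enzyme of diphthamide synthesis, had -0.15 ± 0.057 and -0.17 ± 0.068. Both were lower in 5 of 5 line pairs, as were 6.66% of all genes tested. The conditions of BRIP1 did not overlap, as was so with VENins lower for 2.3% of all genes tested. Of 12 tested genes of iron uptake, storage and regulation, 6 had a fold change above 0, with a median log2 of -0.02. With 1 line pair left out, this median lay between -0.05 without line pair 5 and -0.01 without line pair 1. PCBP2, an iron chaperone, had 0.14 ± 0.056, and HMOX2, a heme oxygenase, had 0.05 ± 0.065. IREB2, an iron regulatory protein, and SLC39A14, a metal importer, had -0.20 ± 0.076 and -0.12 ± 0.056. Over these 5 lists together, 0 of 71 tested genes were called by edgeR's quasi-likelihood test, 15 (21.1%) had an unadjusted p under 0.05, beside 16.2% of all genes tested, and DESeq2 with the line number as a term called 0.

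Several members start beside another gene. In 5 of 8 members, the annotated 5' end lay within 1000 bases of the 5' end of a gene on the opposite strand. This was so for 22.1% of 19376 protein-coding genes, whether tested here or not. The neighbours of the members were ROMO1 for NFS1, FARS2 for LYRM4, CHEK2 for HSCB, the small RNA gene SCARNA13 for GLRX5 and NPC2 for ISCA2. Because the libraries do not mark the strand, reads from overlapping exons of such genes cannot be told apart. Reads that fell on more than 1 gene in the authors' counting were set aside as ambiguous. They made up 3.69% to 3.98% of the reads per file and are in no gene's count. Of the exon bases of GLRX5, 18.2% also belong to SNHG10 or SCARNA13. SNHG10 was at 9.58 ± 0.905 CPM in the VENsens and 10.3 ± 1.07 CPM in the VENins lines (SD, n = 5 lines each), and higher in 4 of 5 line pairs. For HSCB, 20.6% of exon bases overlap CHEK2, and CHEK2 had 33.3 ± 2.31 and 36.5 ± 1.92 CPM. CHEK2 was higher in 5 of 5 line pairs, as were 7.61% of all genes tested, with a log2 fold change of 0.13 ± 0.066 (SE). For NFS1, 6.3% of exon bases overlap other genes, among them ROMO1. ROMO1 was at 33.7 ± 2.63 and 39.9 ± 3.61 CPM and also higher in 5 of 5 line pairs. It had a log2 fold change of 0.24 ± 0.070 (SE) and an adjusted p of 0.130 in edgeR's quasi-likelihood test with Benjamini-Hochberg adjustment. For ISCA2, 3.4% of exon bases overlap NPC2, which was at 43.2 ± 2.44 and 45.6 ± 3.98 CPM and higher in 4 of 5 line pairs. FARS2, whose exons LYRM4 does not share, was at 16.4 ± 1.17 and 16.1 ± 2.27 CPM, with a log2 fold change of -0.04 ± 0.075 (SE), and was higher in 2 of 5 line pairs. The part of these neighbours in the counts of the members was not tested. ISCU, LYRM4, FDX1 and ISCA1 shared no exon bases with another annotated gene.

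Promoter sequence is shown because the members tended to be high and low in the same libraries, although ISCA1 stood apart. RefSeq windows (GRCh38.p14) of 300 bases, from 250 before to 50 after the start, were found for all 8 members and searched on both strands for 7 motifs. The motifs were GCGCATGCG (NRF1), TCAAGGTCA (ERRA), CCGGAAGT (ETS), AAGATGGCG (YY1), CCAAT (named by its letters), CACGTG (E-box) and TATAAA, a core promoter motif. CCAAT or its reverse complement was found in 5 members, namely FDX1, HSCB, GLRX5, ISCA1 and ISCA2, and in 35.7% of 27305 windows, 1 per gene. GLRX5 held 5 such matches, where 1.06% of windows held 4 or more, and HSCB held 3, where 3.42% held 3 or more. AAGATGGCG was found in ISCU (1.85% of windows), CCGGAAGT in NFS1 (4.44%) and TATAAA in FDX1 (12.0%). GCGCATGCG (2.10% of windows), TCAAGGTCA (0.359%) and CACGTG (7.43%) were found in none of the 8 windows, and LYRM4 held none of the 7 motifs. Distances are from the RefSeq start, and GENCODE 29 starts some of these genes further upstream. The window of GLRX5 lies inside an exon of GLRX5 there. That of ISCA1 lies inside the gene, and 0 of its 250 bases before the RefSeq start belong to an exon of ISCA1. For FDX1, 26% of the 250 bases before the RefSeq start, with both of its matches, belong to an exon of FDX1 in GENCODE 29. Stretches around some of the matches follow in the direction of the gene, 5' to 3', with the match in capitals and its distance from the RefSeq start.
GLRX5, 204 bases before the start, plus strand, chr14:95534834-95534862: ggttgccgacgaCCAATagtaaggcagta
GLRX5, 130 bases before the start, plus strand, chr14:95534908-95534936: acgagcaacatgATTGGtggaatcgagta
GLRX5, 66 bases before the start, plus strand, chr14:95534972-95535000: tttagagccggcCCAATgagggcctccag
HSCB, 24 bases before the start, plus strand, chr22:28742003-28742031: tcgactccccagCCAATcagcaacattag
ISCA2, 113 bases before the start, plus strand, chr14:74493640-74493668: ctcccgcactacCCAATaggcatgttggg
ISCA1, 64 bases before the start, minus strand, chr9:86282586-86282614: catgcaactcacCCAATggtggcggcggg
FDX1, 29 bases before the start, plus strand, chr11:110429907-110429935: gcgctctgcttgCCAATgtctttataggt
ISCU, 25 bases after the start, plus strand, chr12:108562610-108562638: gcaagccggcAAGATGGCGgcggctgggg

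The windows of the members were rich in G and C, with a median of 69.3% beside 58.3% over all windows. Their median ratio of observed to expected CpG was 0.869, beside 0.580. All windows include those of genes that were not tested in these libraries, here and in the shares of windows with a motif. A match is a description of these letters only.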

How the data were processed

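The authors deposited read counts per Ensembl gene, without normalization, for each of 10 libraries of poly(A) RNA sequenced as single-end reads. The submitters' processing notes name bcl2fastq 2.20.0.422, Bowtie2 2.3.5.1, SAMtools 1.9, HTSeq 0.9.1 and the build hg19 (GRCh37). The annotation release and the strand setting are not given in the sources used here. Summary lines that name no gene held 45.8% to 47.3% of the reads per file and were left out. Reads of low alignment quality and reads on more than 1 gene are not in the gene counts, which lowers genes with close copies or overlaps.

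The main test was that of edgeR 4.0.16 in R 4.3.3 (filterByExpr with a minimum count of 10, TMM, quasi-likelihood F test with line number and condition, Benjamini-Hochberg adjustment, threshold 0.05) and DESeq2 1.42.0 as the alternative. The line number was kept as a term because the study describes a paired analysis. SEs were derived from the F statistic, and log2 CPM used a prior count of 2. The steps were tested on simulated data. Figures were drawn in Python 3.11.15 with matplotlib 3.10.9. GENCODE 29 (GRCh38) gave names for 52526 of 63677 identifiers, matched by ID, and exon lengths. Its coordinates and those of RefSeq (GRCh38.p14) are of another build than the alignments, and no reads were placed by them.

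The members and lists were chosen with earlier results of these data known. The text names every member, in each other list the genes called and otherwise the 2 with the smallest p in each direction, the 5 genes most like the members, and the cell type markers, except a few genes that are not reported here. Other genes, such as FDX2, HSPA9 and the opposite-strand neighbours, were added after the values were seen. Of 108 listed symbols, 106 were matched. The other settings were no block, DESeq2, RLE or library size scaling, other filters, length and GC trends taken out, pseudogene counts added, and line pairs left out.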

Additional observations from a re-analysis of the deposited data

Results flagged for a closer look

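In groups of 5 libraries, 3 values lay far from the others of their condition, where the gap to the nearest value exceeded 0.71 of the whole range. LYRM4 was at 48.95 CPM in VENins 1, while the other VENins lines lay between 53.8 and 55.8 CPM. The summed mitochondrial iron-sulfur proteins were at 556.8 CPM in VENsens 2, beside 612.9 to 622.8 CPM in the other VENsens lines. The summed cytosolic and nuclear iron-sulfur proteins were at 1317 CPM in the same library, beside 1374 to 1381 CPM. VENsens 2 was also the library with the lowest value of 7 members. Chance alone gives such a value in about 1 in 20 groups, and 30 groups were compared. By the counts of whole libraries, VENins 5 stood apart from the other VENins lines, with a chi-square per degree of freedom of 12.1 to 13. The remaining VENins lines had 4 to 8.81 between them, and the VENsens lines had 1.85 to 8.92.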

How the results depend on the processing

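All 8 members kept a log2 fold change above 0 in each of the 9 other settings and with each line pair or library left out. No member but GLRX5 was called in any of them. Lines of a pair share only their number: the correlations of same-numbered lines, as deviations from condition means, lay between -0.103 and 0.0280, and no VENins line correlated best with its own number. Without the replicate block, edgeR called 149 genes and 1 member, GLRX5, with an adjusted p of 0.0492. DESeq2 called 217 genes and 1 member with the block, and 739 genes, 1 member and 2 genes of the other iron-sulfur and iron lists (GLRX3 and UQCRFS1) without it. Without a filter on low counts, edgeR called 664 genes and 1 member. With length and GC trends taken out, it called 142 genes, 0 members and 1 gene of the other lists. The cause was not tested.

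With line pair 1, 2, 3, 4 or 5 left out, edgeR called 57, 6, 17, 331 and 9 genes and 0 members. In a check added after the data were seen, single libraries were left out without the block. The genes called then ranged from 18 without VENsens 4 to 783 without VENins 4, with 178 without VENsens 3, 21 without VENsens 5 and 502 without VENins 5, the members called from 0 to 1, and the genes of the other lists from 0 to 2. GLRX5 was called in 3 of these 10 fits, without VENsens 3, VENins 4 or VENins 5. GLRX5 had the largest fold change of the members in 23 of the 24 other fits, and ISCA1 the smallest in 19, with NFS1 smallest without line pair 2, VENsens 1, VENsens 2 or VENins 3 and LYRM4 without line pair 4. Single log2 fold changes moved by more than the median. With length and GC trends taken out, that of LYRM4 was 0.20 instead of 0.11 and that of ISCA1 0.02 instead of 0.06. Without line pair 2, NFS1 was at 0.04, HSCB at 0.09 and ISCA2 at 0.10, instead of 0.08, 0.16 and 0.15. Without line pair 5, NFS1 was at 0.14, and without line pair 1, ISCA1 was at 0.03. With single libraries left out and no block, NFS1 was at 0.05 without VENsens 1 and at 0.04 without VENsens 2 or VENins 3. With single libraries left out and no block, the median log2 fold change of the mitochondrial iron-sulfur proteins was 0.01 without VENsens 2, and 0.02 without VENins 3, VENins 4 or VENins 5, instead of 0.04. Of the 10 genes of the cytosolic machinery, 9 were above 0 without VENsens 2, VENins 1 or VENins 5. The median of the cytosolic and nuclear proteins was above 0 without VENsens 3, VENins 1 or VENins 2, and -0.03 without VENsens 2 or VENins 4. Over these fits, 7 to 13 of the 23 were above 0. The median of the iron handling genes lay between -0.06 without VENins 5 and 0.0010 without VENsens 5. The median log2 fold change of the members lay between 0.12 and 0.13 in the other settings, and between 0.09 and 0.16 with a line pair left out.

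Levels per kb depend on the transcript length used. Counts of 190 to 318 per library limit HSCB, and 5 lines per condition limit all members. The alignments are of another build than the annotation used here.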
